A study of Homo sapiens with 47 samples.

Results

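The regions described here are stretches of chromatin in PC3 cells where ChIP reads of H3K4me3Q5ser were counted and where at least 1 CUT&Tag peak deposited as up lies. They were chosen from the authors' list of 19535 H3K4me3Q5ser regions by 2 conditions, a length under 15000 bp and an overlap of at least 1 bp with an up peak. The choice gave 1666 regions of 19535. The ChIP counts and RNA values below were not used in these 2 conditions. The list and its lengths are, however, the authors' H3K4me3Q5ser regions of the same series, and how up peaks were called is not known. The choice therefore cannot be taken as independent of the ChIP. PC3 is an established human prostate cancer cell line. Its 3 lines carried the empty vector, overexpressed DDC, or overexpressed SLC6A4, and nothing in the labels says how many clones or transductions stand behind a line. The series holds 47 samples, 9 of RNA, 27 of ChIP (H3K4me3Q5ser, H3K4me3 and input) and 11 of CUT&Tag.

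DDC is the decarboxylase that makes serotonin from its hydroxylated precursor, and SLC6A4 is the transporter that takes serotonin into the cell. Inside the cell the transglutaminase TGM2 can join serotonin to the glutamine next to lysine 4 on the tail of histone H3. When that lysine is trimethylated the combined mark is H3K4me3Q5ser. H3K4me3 itself sits at active promoters, where readers such as the TFIID subunit TAF3 bind it, writers of the SET1 and MLL families place it and KDM5 demethylases remove it.

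Up peaks are the deposited list that names these regions, and how a peak was called up is not given in the sources used here. The non-up table beside it holds CUT&Tag values of H3K4me3 from 1 library each of the control, of SLC6A4 and of SLC6A4 with shTGM2 (a knockdown of TGM2). In that table the highest ratio of SLC6A4 to control CPM (counts scaled to a common library total) was 1.24998. That ratio looks like a limit set in the file, and no such values of the up peaks were used here. The 1229 non-up peaks that share a region with an up peak had median values of 14.7 CPM in control, 15.6 in SLC6A4 and 14.9996 in SLC6A4 with shTGM2, and their median ratio of SLC6A4 to control was 1.09, against 1.06 for non-up peaks elsewhere. The sets that serve for comparison are the 8229 regions under the same length limit that hold only non-up peaks, the 8952 that hold no CUT&Tag peak, and the 688 regions of 15000 bp or more.

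Sequence is shown for 4 regions to show how far base composition ranges among the named regions, since several values below moved with it. The 300 bases at the centre of the widest up peak with a window clear of annotated exons are given, in GRCh38 on the plus strand, with each CpG in capitals. These 4 were picked after their values were seen, among regions that the naming rule had already selected, so their differences in composition stand as a display only. They are CDC34 (chr19:532770-533069, 16 CpG), SUCO (chr1:172535200-172535499, 1 CpG), NUMB (chr14:73456580-73456879, 2 CpG) and MYLIP (chr6:16130043-16130342, 6 CpG).
CDC34: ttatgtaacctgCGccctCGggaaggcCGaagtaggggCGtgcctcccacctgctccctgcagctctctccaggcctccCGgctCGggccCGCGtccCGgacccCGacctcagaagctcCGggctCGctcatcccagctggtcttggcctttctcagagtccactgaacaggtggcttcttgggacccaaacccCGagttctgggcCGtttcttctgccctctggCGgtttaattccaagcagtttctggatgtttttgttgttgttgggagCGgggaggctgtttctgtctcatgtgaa
SUCO: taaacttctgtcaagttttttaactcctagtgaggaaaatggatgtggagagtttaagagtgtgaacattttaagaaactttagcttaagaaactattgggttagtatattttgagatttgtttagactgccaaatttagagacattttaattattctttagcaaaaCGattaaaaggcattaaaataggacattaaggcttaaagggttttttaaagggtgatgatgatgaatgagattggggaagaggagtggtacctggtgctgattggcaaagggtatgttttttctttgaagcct
NUMB: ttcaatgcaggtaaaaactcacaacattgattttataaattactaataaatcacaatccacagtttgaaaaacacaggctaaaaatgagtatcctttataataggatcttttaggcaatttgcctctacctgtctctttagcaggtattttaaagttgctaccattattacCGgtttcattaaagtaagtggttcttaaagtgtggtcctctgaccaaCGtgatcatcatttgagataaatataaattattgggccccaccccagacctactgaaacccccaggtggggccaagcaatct
MYLIP: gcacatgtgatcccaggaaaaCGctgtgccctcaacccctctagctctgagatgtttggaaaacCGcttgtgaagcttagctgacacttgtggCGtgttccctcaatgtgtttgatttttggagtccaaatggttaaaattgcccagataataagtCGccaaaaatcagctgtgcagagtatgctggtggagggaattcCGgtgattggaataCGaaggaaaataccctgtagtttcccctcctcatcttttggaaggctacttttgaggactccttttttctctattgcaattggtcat
The window at CDC34, which encodes a ubiquitin-conjugating enzyme of the cell cycle, had a GC content of 60.3%. The windows at SUCO and NUMB had 33.3% and 36.7%.

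Compared with regions that hold only non-up peaks, the regions with up peaks were longer and more often held gene starts. Their median length was 8907.5 bp (range 815 to 14992), against 6840 bp in regions with only non-up peaks. A protein-coding start lay in or within 1000 bp of 1434 of the 1666 regions (86.1%), against 74.3% of the regions with only non-up peaks and 52.1% of all regions. In 260 regions (15.6%) starts lay on both strands, against 10.4%. The 688 regions of 15000 bp or more had 94.8% with a protein-coding start and 54.1% with starts on both strands. The part of length in these shares was not tested. A deposited H3K4me3 ChIP peak overlapped 100% of the regions with up peaks and 100% of those with only non-up peaks, against 63.7% of all regions. At the length limit, the regions just inside it were NOP58 (14990 bp) and POLE with PXMP2 (14992 bp), and those just outside it were CLEC16A with DEXI (15000 bp) and OST4 (15034 bp).

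Of the 2163 up peaks, 1823 lay in these regions and 340 in the regions over the length limit. Most regions held 1 up peak (1518), 141 held 2 and 7 held 3 or more. Up peaks covered a median of 16.7% of a region's length, so most of the length over which ChIP reads were counted lay outside the up peaks. In 941 regions a non-up peak lay beside the up peak, and 725 regions held up peaks only.

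The up peaks lay mostly just inside genes. Of the 1823, 1507 (82.7%) had their centre downstream of the nearest protein-coding start, at a median distance of 951 bp in either direction. Non-up peaks in the same regions were downstream in 56.1%, and those in other regions under the length limit in 71.2%. Introns, away from starts, held 37.4% of the up peaks. Only 1.15% lay between genes, against 5.298% of the non-up peaks elsewhere.

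**Figure D1:**
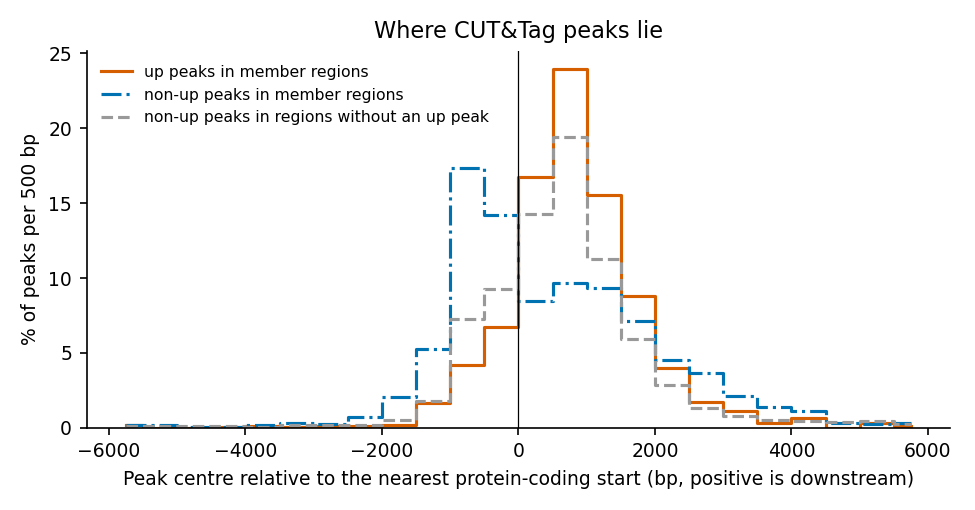
Position of CUT&Tag peak centres relative to the nearest protein-coding start, in bp with positive values downstream, as the % of peaks per 500 bp. The up peaks pile up just downstream of the start, where 82.7% of them lie on the downstream side, against 56.1% of the non-up peaks in the same regions.

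Base composition did not set the regions apart as a group. Their median GC content was 46.7%, against 46.8% in regions with only non-up peaks. In the 500 bases at the region centre, the SP/KLF motif GGGCGG, read on both strands, occurred in 35.7% of them, against 35.2% with only non-up peaks and 30.002% of all regions under the length limit. The AP-1 motif TGANTCA occurred in 8.88%, against 9.59% and 11.7%, and the NFY motif CCAAT in 44.2%, against 43.9% and 44.8%. In the 500 bases at the centre of the up peaks GGGCGG occurred in 42.3%, against 39.1% of the non-up peaks in other regions. These are shares of windows that hold the letters, and show no binding.

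ChIP values rest on 13.5 to 24.8 M read pairs in regions per H3K4me3Q5ser library, 3.43 to 5.81 M per H3K4me3 library and 1.39 to 1.83 M per input library. Inputs of the SLC6A4 line are not analysed here. The 3 libraries of a line and antibody differed by about the sampling noise (chi-square per region 0.992 to 1.137 over all regions, and above a p of 0.05 in 7 of 24 pairs). Each triplet is therefore read here as 1 sample of its line, although the tests entered every library as a replicate. The tests below thus compare libraries and not independent cultures, and their p-values do not measure the spread between cultures. Library values are given without an SD. In the RNA, which did vary between libraries, DDC had 0, 0 and 0.844 normalised reads in the empty-vector libraries and 23.4, 26.9 and 30.2 in the DDC libraries, and SLC6A4 had 0, 0 and 0.89 against 89.7, 112 and 133 in its own line. The PC3 markers KRT8, KRT18, VIM and CD44 were present, and KLK3 was at 0 in every library. Of 10 genes of other cell types, ALB and CD3E were among those at 0 in all 9 libraries, while the summed level of the 10 ranged from 291 to 295 in empty vector and 107 to 138 in DDC, and from 307 to 311 against 82.0 to 99.2 in the SLC6A4 table. PECAM1, an endothelial adhesion gene, carried most of this fall (229, 241 and 217 in empty vector, 35.3, 52.3 and 47.1 in SLC6A4), and their part in the results below was not tested. In bulk RNA, fewer cells of a type and less RNA per cell cannot be told apart.

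In empty-vector cells the regions carried more serotonylated mark relative to plain H3K4me3 than regions with only non-up peaks. The median H3K4me3Q5ser level was 9.61 CPM per kb, against 8.71 in regions with only non-up peaks and 4.40 in regions with no CUT&Tag peak. H3K4me3 was in the opposite order, at 8.58 CPM per kb against 9.67. The median log2 ratio of H3K4me3Q5ser to H3K4me3 was 0.18, against -0.07 with only non-up peaks and 0.30 in the 688 regions of 15000 bp or more, the highest of these sets. H3K4me3 over input was 0.11 against 0.12.

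The highest levels of H3K4me3Q5ser in empty-vector cells were at CCNY-AS1 (47.0 CPM per kb), an antisense RNA gene, then at SUCO (44.5), which encodes a membrane protein of the endoplasmic reticulum, RBM25 (40.2), a splicing regulator, ITGB1-DT (39.3), a divergent transcript of the integrin gene ITGB1, and NUMB (35.7), an endocytic adaptor that restrains Notch. The low end held PDE3B with PSMA1 (2.71) and NHLRC4 with PIGQ (3.09).

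In SLC6A4 cells the serotonylated mark rose over more of these regions than it fell, while H3K4me3 rose and fell about equally. Libraries were scaled by their reads in the listed regions, so rises and falls here and below are relative to the other regions. A change of a mark shared by all regions would not be seen. Of the 1666 regions, 1006 (60.4%) had higher H3K4me3Q5ser and 475 (28.5%) lower at an adjusted p under 0.05 in edgeR's quasi-likelihood test. Over all regions tested the percentages were 41.0 higher and 41.5 lower (82.5 either way), and over regions with only non-up peaks 44.03 and 43.2. The changes were small, with a median log2 change of 0.16 (a fold of 1.11, 10th to 90th percentile -0.29 to 0.66) against 0.00. A change of at least 1.5-fold was reached by 227 regions upward and 22 downward, which is 13.6% and 1.32%, beside 13.5% and 17.1% of all regions. With an offset fitted to GC content, an alternative chosen after seeing the data, these counts were 74 and 17 (4.44% and 1.02%), beside 5.24% and 8.95% of all regions. The 688 longer regions, which the length limit leaves out, changed more often still, with 71.8% higher and 21.4% lower and a median of 0.28 (0.16 with the GC offset).

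H3K4me3 in the same cells was higher at 582 regions (34.9%) and lower at 522 (31.3%), beside 31.9% and 29.6% of all regions (61.5% either way), and its median log2 change was 0.02. The difference between the marks was tested as an interaction, the change of H3K4me3Q5ser minus that of H3K4me3. It was higher in SLC6A4 cells at 712 regions (42.7%) and lower at 46 (2.76%), beside 14.5% and 14.7% of all regions (29.2% either way), with a median of 0.14. Regions with only non-up peaks had 17.8% and 16.1%, with a median of 0.01, and the 688 longer regions had 40.3% higher and 11.3% lower, with a median of 0.07. With library size scaling in place of TMM (edgeR's trimmed-mean scaling) the split was 387 higher and 142 lower, beside 7.31% and 23.9% of all regions, and the medians were 0.05 in these regions and -0.08 in regions with only non-up peaks. The excess of higher calls was thus smaller under that scaling, and the longer regions then had 20.1% higher and 24.3% lower.

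**Figure D2:**
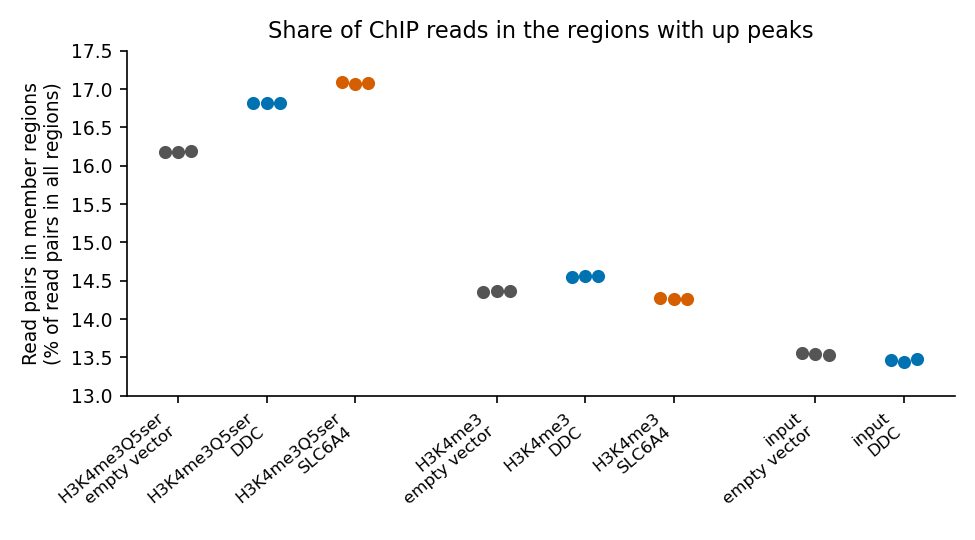
Read pairs in the 1666 regions as a % of the read pairs in all regions, 1 point per ChIP library, by antibody and line. The H3K4me3Q5ser points rise from 16.18 to 16.20% in empty vector to 16.82% in DDC and 17.06 to 17.09% in SLC6A4, while the H3K4me3 points in SLC6A4 (14.26 to 14.27%) lie just under empty vector (14.36 to 14.37%).

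As a share of each library's read pairs, which amounts to library size scaling, the regions held 16.18 to 16.20% of the H3K4me3Q5ser read pairs in empty vector and 17.06 to 17.09% in SLC6A4, with no overlap. For H3K4me3 the shares were 14.36 to 14.37% and 14.26 to 14.27%. The median H3K4me3Q5ser level went from 9.61 to 10.7 CPM per kb, and the spread of levels was narrower: the 90th percentile was 2.68 times the 10th in empty vector and 2.16 times in SLC6A4.

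**Figure D3:**
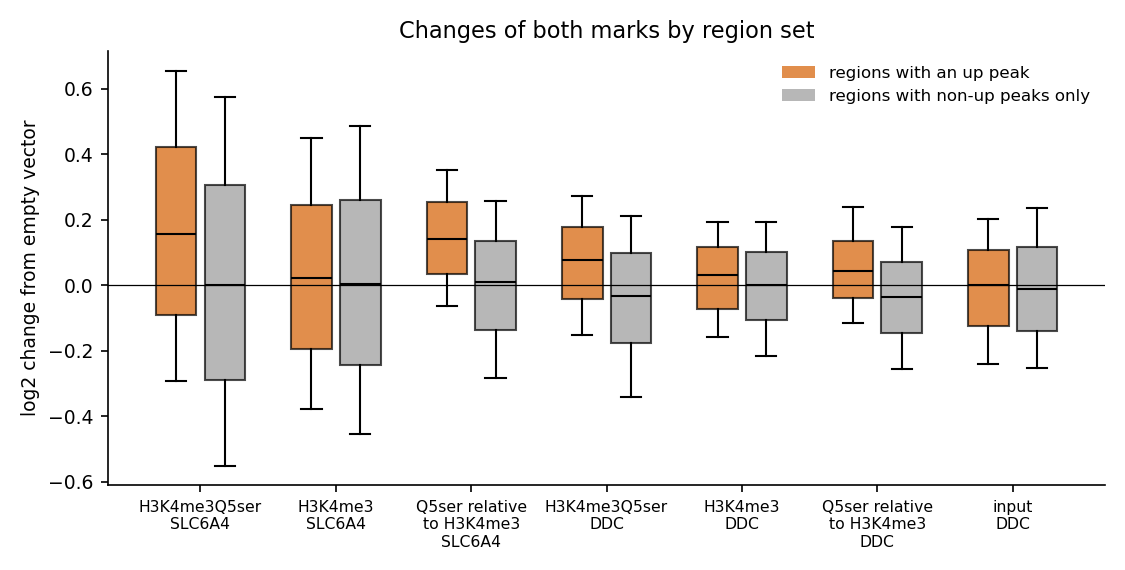
Log2 change from empty vector for both marks and their interaction, in the regions with an up peak and in those with only non-up peaks. Boxes give the quartiles with the median as a line, and whiskers run from the 10th to the 90th percentile. For H3K4me3Q5ser in SLC6A4 the median is 0.16 with an up peak and 0.00 without one, and the boxes overlap widely.

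Much of the spread among the regions followed base composition, for both marks. In 5 equal classes of GC content over all regions, from low to high, the median H3K4me3Q5ser change in SLC6A4 was -0.27, -0.06, 0.18, 0.39 and 0.64 in regions with up peaks (120, 487, 498, 367 and 194 regions). The H3K4me3 change ran from -0.38 to 0.37 over the same classes. The interaction moved less, with medians of 0.08, 0.10, 0.14, 0.17 and 0.27, against -0.08, -0.01, 0.01, 0.04 and 0.08 in regions with only non-up peaks. Inputs of the SLC6A4 line are not analysed here, so whether the GC trend is also in that line's input was not tested.

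**Figure D4:**
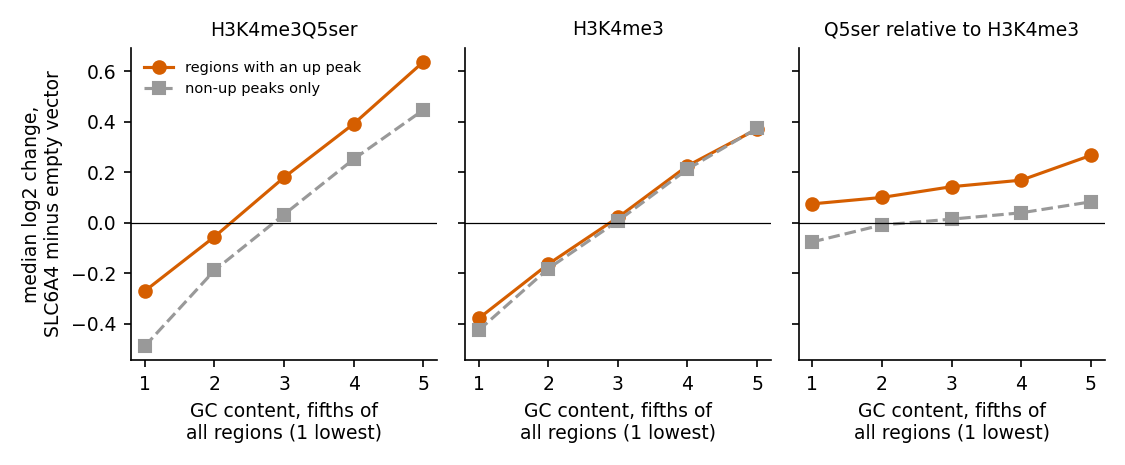
Median log2 change in SLC6A4 against empty vector by class of GC content (1 lowest, 5 highest), for H3K4me3Q5ser, H3K4me3 and their interaction, in regions with an up peak and with only non-up peaks. Both marks climb with GC content. The interaction is flatter and, with the TMM scaling used here, stays above 0 in the 5 classes of regions with an up peak.

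With the GC offset, 820 of the 1006 higher H3K4me3Q5ser calls were again higher and 79 turned to lower. Of the 475 lower calls, 247 were again lower and 153 turned to higher. The interaction was less affected: 656 of the 712 higher calls were again higher and 0 turned. With TMM, the median interaction of the regions was above 0 on each of 23 chromosomes (0.06 to 0.21) and above that of regions with only non-up peaks. H3K4me3Q5ser itself had a median above 0 on 22 chromosomes. The position against 0 depends on the scaling. With library size scaling the interaction median of these regions as a whole was 0.05, against 0.14 with TMM. Medians by chromosome or GC class were not taken under that scaling.

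The regions were not uniform. Those with up peaks only had a median H3K4me3Q5ser change of 0.22 in SLC6A4, against 0.10 where non-up peaks lay beside the up peak, and interactions of 0.15 and 0.13. The 232 regions without a protein-coding start had 0.10. The gap to regions with only non-up peaks shrank with length, from 0.25 under 6000 bp to 0.13, 0.09 and 0.05 in the classes up to 9000, 12000 and 15000 bp. For the interaction the gaps were 0.20, 0.10, 0.08 and 0.09.

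Single regions show the scale. At COL6A1 (chr21:45981737-45987649), which encodes a chain of collagen VI, H3K4me3Q5ser was 7.53, 7.83 and 7.98 CPM per kb in empty vector, 8.997, 9.24 and 8.79 in DDC and 21.4, 20.8 and 21.1 in SLC6A4. H3K4me3 there was 4.62, 5.56 and 5.299 in empty vector and 10.9, 10.98 and 10.1 in SLC6A4. Both marks were high in the SLC6A4 libraries and did not overlap empty vector. The log2 change of H3K4me3Q5ser was 1.44, and 0.85 with the GC offset, in a region of 64.2% GC.

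At SIM2 (chr21:36693449-36707763), which encodes a transcription factor of the bHLH-PAS family, H3K4me3Q5ser was 9.30, 9.17 and 9.20 CPM per kb in empty vector and 18.9, 18.8 and 19.1 in SLC6A4, a log2 change of 1.04 (0.52 with the GC offset). The H3K4me3 libraries went from 6.88, 7.501 and 6.35 to 9.73, 9.99 and 9.85. The region of DDX51 and NOC4L (chr12:132136421-132148634), genes of ribosome assembly, rose by 1.44 (0.90 with the GC offset), from 5.25, 5.02 and 5.29 to 14.2, 14.04 and 13.9. The regions of ARFGAP1 with NKAIN4 (1.11, and 0.68 with the GC offset) and ZMIZ1 (0.72, and 0.23 with the GC offset) followed. ARFGAP1 is a Golgi regulator of Arf and ZMIZ1 a transcriptional coregulator.

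The falls were fewer. At SUCO (chr1:172527562-172540852, 38.6% GC) H3K4me3Q5ser was 44.8, 44.3 and 44.6 CPM per kb in empty vector, 42.8, 41.9 and 42.0 in DDC and 28.5, 28.8 and 28.3 in SLC6A4. H3K4me3 fell alongside, from 47.0, 45.6 and 46.5 to 30.4, 29.7 and 30.9. The log2 change of -0.64 became -0.01 with the GC offset, with an adjusted p of 0.397 in edgeR. NUMB (chr14:73452652-73463575) had 35.7, 35.7 and 35.6 against 25.05, 24.3 and 24.8, a change of -0.53 (-0.33 with the GC offset). The region of FGFR1OP2 and INTS13, a subunit of the Integrator complex, had -0.56, which turned to 0.07 with the GC offset.

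The mark-specific differences, where H3K4me3Q5ser and H3K4me3 parted, had other leading regions. At SLIT2 (chr4:20249600-20260451), the gene of an axon guidance ligand, H3K4me3Q5ser was 12.3, 12.1 and 11.9 CPM per kb in empty vector and 15.95, 15.8 and 15.6 in SLC6A4, while H3K4me3 was 13.5, 12.99 and 12.1 against 10.2, 10.5 and 10.0. The marks moved in opposite directions there, and the interaction was 0.71 (0.75 with the GC offset). ITGB1-DT (0.32) and CCNY-AS1 (0.33) also had higher interactions, as did regions with no gene start at chr2:150477749-150488069 (0.64) and chr3:104434514-104447019 (0.47).

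Lower interactions were rare and included 2 zinc finger genes. At ZNF443 H3K4me3Q5ser was 7.39, 7.45 and 7.46 CPM per kb in empty vector and 9.20, 8.97 and 8.95 in SLC6A4, but H3K4me3 went from 8.22, 8.93 and 8.05 to 13.95, 12.9 and 13.6. The plain mark therefore rose more than the serotonylated one, with an interaction of -0.40 (-0.31 with the GC offset), and ZNF799 had -0.37. H3K4me3 also rose at ZNF471 (1.40), CLPTM1L (0.92) and MRPL36 with NDUFS6 (0.73), a mitochondrial ribosome gene beside a respiratory complex I gene.

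MYLIP encodes a ubiquitin ligase, and its region (chr6:16126532-16132309) carried less of the serotonylated mark in both lines. H3K4me3Q5ser was 9.11, 8.75 and 9.10 CPM per kb in empty vector, 6.87, 6.47 and 6.22 in DDC and 4.72, 4.61 and 4.32 in SLC6A4. H3K4me3 was 13.5, 13.7 and 14.6 in empty vector, 13.3, 10.9 and 12.3 in DDC and 9.61, 10.5 and 10.0 in SLC6A4. The 3 lines did not overlap for H3K4me3Q5ser. The SLC6A4 change was -0.99 (-1.06 with the GC offset) and the interaction -0.51 (-0.50).

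In DDC cells the serotonylated mark moved in the same regions by less. H3K4me3Q5ser was higher at 871 (52.3%) and lower at 363 (21.8%), beside 29.7% and 31.5% of all regions, with a median of 0.08 against -0.03 in regions with only non-up peaks. The 688 longer regions had 69.0% higher and 17.3% lower, with a median of 0.12. Only 2 regions rose and 1 fell by at least 1.5-fold, beside 1.33% and 6.44% of all regions. H3K4me3 was higher at 198 (11.9%) and lower at 126 (7.56%), beside 8.24% and 9.39%. The interaction was higher at 181 (10.9%) and lower at 61 (3.66%), beside 5.15% and 9.88%, with a median of 0.04 against -0.03, and the longer regions had 31.5% higher and 6.83% lower. Either way, the percentages over all regions were 61.2 for H3K4me3Q5ser, 17.6 for H3K4me3 and 15 for the interaction. The DDC and SLC6A4 comparisons share the empty-vector libraries.

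Input of DDC cells was called about as often in these regions as in all regions, and it moved with the mark at some of the leading ones. Input counts were higher at 40 (2.41%) and lower at 72 (4.33%) of the 1663 regions tested, beside 2.69% and 3.61% of all regions (6.30% either way). At PARD3, a cell polarity gene, H3K4me3Q5ser was 21.9, 21.8 and 21.9 CPM per kb in empty vector and 28.7, 28.5 and 28.6 in DDC, a log2 change of 0.39. Input there was 31.8, 32.1 and 30.9 against 41.5, 40.3 and 39.3, a change of 0.36, and H3K4me3 changed by 0.37. The 3 readouts rose together by nearly the same amount.

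At MAPKAPK5, a stress-activated kinase gene, H3K4me3Q5ser was 12.4, 12.5 and 12.5 in empty vector and 17.3, 17.6 and 17.7 in DDC. The log2 change was 0.49, beside 0.47 in input and 0.46 in H3K4me3. POLE with PXMP2, of which POLE encodes the catalytic subunit of a replicative DNA polymerase, changed by 0.55, beside 0.57 in input. At IGF2BP2, an RNA-binding protein gene, the mark fell by 0.43 and input by 0.56 on the log2 scale. The part of the input change in these results was not tested.

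CDC34 had the highest named interaction in DDC, 0.87 (0.76 with the GC offset). H3K4me3Q5ser there was 6.56, 6.65 and 6.69 CPM per kb in empty vector and 6.95, 7.79 and 8.13 in DDC, while H3K4me3 was 4.79, 6.002 and 5.44 against 2.90, 3.66 and 3.63. The H3K4me3 libraries of DDC lay below those of empty vector with no overlap, and input was called neither way (adjusted p = 0.645 in edgeR). In SLC6A4 both marks at CDC34 were higher, at 13.03, 12.6 and 12.7 for H3K4me3Q5ser and 8.04, 6.89 and 7.68 for H3K4me3. Higher interactions in DDC were also called at NDUFAF8 with TEPSIN (0.56) and TIMM29 with YIPF2 (0.41), and lower ones at DCAF8 (-0.36), SEH1L (-0.31) and ALCAM (-0.21).

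Set against each other on the same relative scale, SLC6A4 had more of the mark than DDC at more of the regions. H3K4me3Q5ser was higher in DDC at 484 (29.1%) and lower at 868 (52.1%), beside 38.0% and 38.9% of all regions, with a median of -0.08. H3K4me3 was higher in DDC at 604 and lower at 524, beside 29.3% and 30.9%, with a median of 0.02. With library size scaling that H3K4me3 split turned to 538 higher and 597 lower, with a median of -0.01, beside 26.5% and 33.4% of all regions. Either way, all regions had 76.9% and 60.2% with TMM.

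Large changes were rare in the other comparisons. At least 1.5-fold was reached by 72 regions up and 36 down for H3K4me3 in SLC6A4 (11.2% and 10.7% of all regions) and by 9 and 1 for the interaction (0.614% and 5.24%). In DDC it was reached by 1 and 3 for H3K4me3 (1.02% and 1.54%), by 5 and 1 for the interaction (0.512% and 2.38%) and by 0 and 0 for input (0.599% and 0.965%). For DDC against SLC6A4 it was reached by 7 and 95 for H3K4me3Q5ser (12.5% and 10.5%) and by 27 and 83 for H3K4me3 (8.59% and 11.1%). In most of these comparisons the regions with up peaks thus held a smaller share of large changes than all regions did.

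RNA of the genes at these regions changed about as often as RNA of all genes. The regions hold starts of 2695 annotated genes, of which 1790 are protein-coding. In SLC6A4, 1755 were tested, and 196 rose (11.2%) and 141 fell (8.03%) at an adjusted p under 0.05 in limma, beside 10.2% and 9.28% of all genes tested (19.4% either way). In DDC, 1746 were tested, and 150 rose (8.59%) and 119 fell (6.82%), beside 8.94% and 8.41% (17.4% either way). The median log2 change was 0.02 in SLC6A4 and 0.00 in DDC. The split between rises and falls depended on the scaling. With library size scaling in edgeR it was 138 up and 164 down in SLC6A4 (median -0.02) and 76 up and 227 down in DDC (median -0.13). In DDC, edgeR with TMM on the recovered reads gave 134 up and 135 down. The shares over all genes with these edgeR settings are not given here. Whether these splits differ from those of all genes was therefore not tested.

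Regions whose genes rose in RNA had somewhat more of both marks. In SLC6A4 the median H3K4me3Q5ser change was 0.31 at the 178 regions with a risen gene, 0.11 at the 134 with a fallen gene and 0.15 at the 1154 where none was called. H3K4me3 had medians of 0.15, -0.01 and 0.02 at the same regions, and the interaction 0.16, 0.15 and 0.13. In regions with only non-up peaks the medians were 0.18, -0.07 and 0.03. In DDC the regions with up peaks had 0.16, 0.00 and 0.08. The same order, highest at risen and lowest at fallen genes, was seen in both sets of regions. The interaction differed little between the classes of regions with up peaks in SLC6A4. It differed more in DDC, with 0.10, 0.03 and 0.04 (0.10, 0.07 and 0.06 with the GC offset). In regions with only non-up peaks the interaction was 0.07, 0.02 and 0.03 in SLC6A4 and 0.04, -0.06 and -0.02 in DDC.

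The largest rises in SLC6A4 cells, among genes with a mean of at least 50 normalised reads, included CCN1, AXL, GADD45A and INHBB. CCN1, a matricellular protein and a target of YAP and TEAD, had 160, 113 and 164 normalised reads in empty vector and 469, 447 and 418 in SLC6A4. The libraries did not overlap, and the log2 change was 1.62 ± 0.12 (SE), adjusted p = 3.23e-08 in limma. Its region, shared with DDAH1, had a H3K4me3Q5ser change of 0.19 and a H3K4me3 change of -0.18. DDAH1, which breaks down an inhibitor of nitric oxide synthesis, rose by 0.95.

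AXL, a receptor tyrosine kinase of mesenchymal cancer cells, had 19949, 19798 and 21624 normalised reads in empty vector and 52800, 54008 and 50838 in SLC6A4, a log2 change of 1.36 ± 0.05 (SE). Its region had 5.52, 5.82 and 6.18 CPM per kb of H3K4me3Q5ser in empty vector and 8.32, 9.13 and 8.85 in SLC6A4. The change of the mark was 0.59, and 0.13 with the GC offset. GADD45A, a growth arrest and DNA damage gene, rose from 88.5, 66.0 and 109 to 168, 224 and 181 (1.13 ± 0.16), with H3K4me3Q5ser at 0.05 and H3K4me3 at -0.55.

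NSDHL, an enzyme of cholesterol synthesis, rose by 0.95 with both marks higher (0.74 and 0.69). INHBB, an activin subunit, rose by 0.99, with 0.89 in H3K4me3Q5ser. DDX39A, an RNA helicase of mRNA export, rose by 0.92, with 0.45. The changes of the marks at these genes, CCN1 and GADD45A are without the GC offset, and their values with it are not given here.

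The largest falls in SLC6A4, with the same minimum of reads, were S100A14, RDH10, BHLHE41 and DHRS3. S100A14, a calcium-binding protein, had 115, 104 and 127 normalised reads in empty vector and 21.9, 26.2 and 24.6 in SLC6A4, a log2 change of -2.20 ± 0.17 (SE), adjusted p = 3.39e-08 in limma. In the DDC table it had 109, 98.6 and 121 against 4.06, 1.07 and 3.90, from 9 reads in the DDC libraries together, a change of -4.89 ± 0.32. H3K4me3Q5ser at its region did not fall in SLC6A4 but was higher by 0.36, which became -0.02 with the GC offset.

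RDH10, which oxidises retinol, fell from 206, 222 and 206 to 45.8, 56.1 and 49.1 in SLC6A4 (-2.05). DHRS3, which reduces retinaldehyde back to retinol, fell by 1.86 on the log2 scale in SLC6A4 and by 1.31 in DDC, with H3K4me3Q5ser higher by 0.35 in SLC6A4 (0.06 with the GC offset). BHLHE41, a circadian repressor, fell by 1.99 and 1.53. The further falls in SLC6A4 were STAU2 (-1.45), an RNA-transport protein, TNFRSF21 (-1.31), a death receptor, ST3GAL1 (-1.31), a sialyltransferase, and SMAD1 (-1.19), an effector of BMP signalling.

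RFX3, a transcription factor of cilia genes, was lower in both RNA and mark. It had 14.8, 14.5 and 23.1 normalised reads in empty vector and 7.63, 1.87 and 3.07 in SLC6A4, a log2 change of -1.96 ± 0.43 (SE) with an adjusted p of 0.00363 in limma. H3K4me3Q5ser at its region fell from 13.01, 13.3 and 13.04 to 8.21, 8.28 and 8.49 CPM per kb (-0.65, and -0.16 with the GC offset), and H3K4me3 by 0.76 on the log2 scale.

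**Figure D5:**
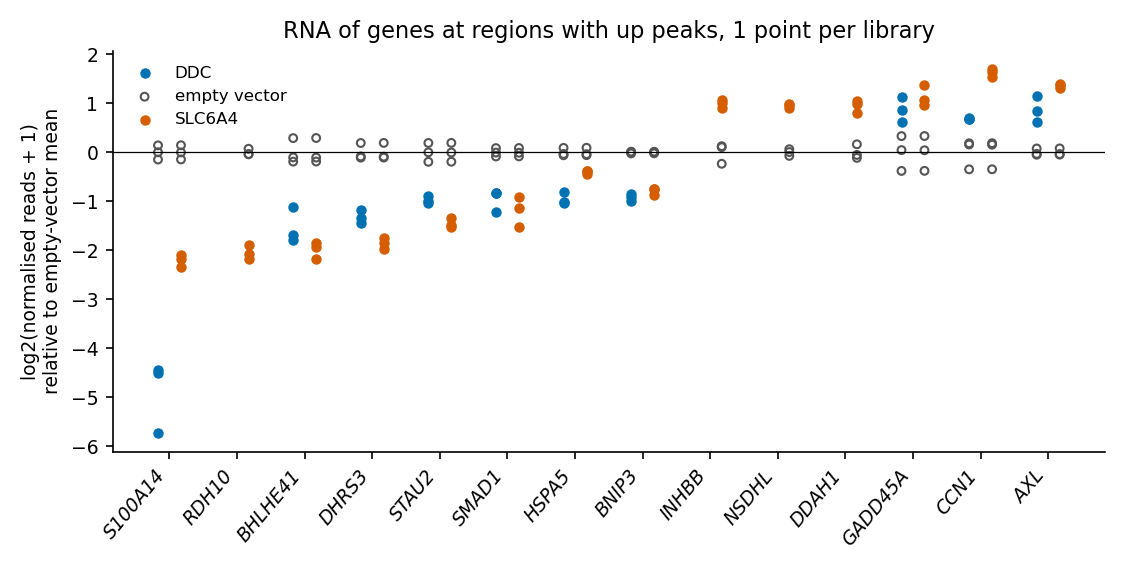
RNA of 14 genes at regions with up peaks, as log2(normalised reads + 1) relative to the empty-vector mean, 1 point per library. CCN1 and AXL lie above 0 and S100A14 and BHLHE41 below 0 in both lines; DDC points are drawn only for genes named in the DDC comparison, so RDH10, INHBB, NSDHL and DDAH1 have none.

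In DDC cells the largest rises among genes with a mean of at least 50 normalised reads were PRKAB1, GADD45A, AXL, SLC25A3, HCFC1, MEPCE, SIM2 and CCN1. PRKAB1, a subunit of the energy sensor AMPK, had 62.3, 59.4 and 87.8 normalised reads in empty vector and 107.7, 155 and 126 in DDC, a log2 change of 0.89 ± 0.17 (SE). SIM2 went from 92.4, 102 and 110 to 161, 193 and 145 (0.70 ± 0.14). SLC25A3, the mitochondrial phosphate carrier, went from 4276, 4133 and 3926 to 6761, 7694 and 7001. None of these 3 overlapped between the lines.

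The falls in DDC, after S100A14, BHLHE41 and DHRS3, included ANP32A (-1.05), a histone-binding phosphatase inhibitor, STAU2 (-0.97), SMAD1 (-0.96), HSPA5 (-0.95) and BNIP3 (-0.92). Among genes whose RNA and mark were both called, RILPL2 (1.24) and BCL7A (1.10), a chromatin remodeller subunit, rose with H3K4me3Q5ser higher by 0.48 and 0.35. NUAK2, a kinase of the AMPK family, rose by 1.20 with 0.19. F2R, the thrombin receptor, fell by 1.12 on the log2 scale with the mark higher by 0.42. Input at the regions of RILPL2, BCL7A, NUAK2 and F2R is not given here. At MAPKAPK5, described above, input rose with the mark, and the part of input in the changes of these genes was not tested. MYLIP had 17.1, 25.5 and 21.1 normalised reads in empty vector and 10.2, 8.60 and 7.80 in DDC (-1.16 ± 0.31, adjusted p = 0.0116 in limma), and was not called by DESeq2 (adjusted p = 0.111). RILPL2 was not called by DESeq2 either (adjusted p = 0.0575).

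Among pathway lists, genes of the endoplasmic reticulum stress response at these regions fell where they were called. Of 5 such genes (HSPA5, CANX, DNAJC3, SEL1L and XBP1), 0 rose and 4 fell in SLC6A4, and 0 rose and 2 fell in DDC. In the whole list of 12, all tested, 0 rose and 8 fell in SLC6A4 (median -0.38) and 0 rose and 5 fell in DDC (median -0.35), beside medians of 0.01 over all genes. HSPA5, the main chaperone of that compartment, had 34182, 37266 and 33574 normalised reads in empty vector and 17247, 17195 and 19859 in DDC. In SLC6A4 it fell by 0.40 on the log2 scale, while H3K4me3Q5ser at its region was higher by 0.29 (the value with the GC offset is not given here). XBP1, a transcription factor of the response, fell by 0.68 in SLC6A4. CANX (-0.26) and DNAJC3 (-0.37) in SLC6A4 were not called by DESeq2 (adjusted p = 0.0514 and 0.069).

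The list of YAP and TEAD targets held rises. Of 4 YAP and TEAD genes, AXL, CCN1 and AJUBA (0.78) rose in SLC6A4 and AXL and CCN1 in DDC, while TEAD1 passed in neither. In the whole list 6 rose and 1 fell of 11 tested in SLC6A4 (median 0.67), and 2 rose and 0 fell of 9 in DDC (median -0.06). HMGCS1, a synthase at the head of the cholesterol pathway, rose by 1.30 in SLC6A4 and did not pass in DDC (-0.15). Only 3 of the 16 genes of the cholesterol list start at these regions. In that whole list 14 rose and 0 fell of 16 tested in SLC6A4 (median 1.01), and 4 rose and 0 fell in DDC (median 0.07). Both hypoxia genes fell in both lines, and in the whole list 0 rose and 8 fell of 11 tested in each line, with medians of -0.63 in SLC6A4 and -0.80 in DDC. LDHA, lactate dehydrogenase, fell by 0.80 in DDC and 0.63 in SLC6A4, and BNIP3, a mitophagy receptor, by 0.92 and 0.79. H3K4me3Q5ser in SLC6A4 was higher at both, by 0.40 at LDHA and 0.84 at BNIP3, without the GC offset. The values with that offset are not given here.

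Of 20 genes that write, read or erase H3K4 methylation, 10 start at these regions, and the calls by limma were few. The other 10 passed in neither line. TAF3 rose in both lines, from 56.2, 45.6 and 52.3 normalised reads to 76.2, 83.8 and 79.9 in DDC (0.63) and by 0.61 in SLC6A4. KDM5A, a demethylase of H3K4me3, fell by 0.57 in DDC and 0.38 in SLC6A4, and its relative KDM5B by 0.80 in SLC6A4. CXXC1, the DNA-binding subunit of the SET1 complex, rose by 0.52 in DDC. DESeq2 did not call CXXC1 (adjusted p = 0.0796), KDM5A (0.0763 in DDC and 0.202 in SLC6A4) or TAF3 (0.0808 and 0.0798), and it did call KDM5B (0.0297).

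Cell cycle and stress genes were few. CCNB1, the mitotic cyclin, rose in DDC (0.37) and SLC6A4 (0.54), FOXM1, its transcription factor, in SLC6A4 (0.51), and CDC6, a replication licensing factor, in SLC6A4 (0.33), the last without a call by DESeq2 (adjusted p = 0.132). Of 3 genes of the ATF4 response, DDIT3 rose in DDC (0.59) and ATF4 fell by 0.47 in SLC6A4. Of 3 mesenchymal genes, CDH2 rose in SLC6A4 (0.44, adjusted p = 0.0268 in limma and 0.138 in DESeq2) beside AXL. Neither of the 2 AP-1 genes tested here (FOSL2 and JUND), nor the neural factor EZH2, nor the luminal marker ESRP2 passed in either line, FOSB and RB1 lay under the read minimum and were not tested, and the lists of neuroendocrine, basal, NF-kB and serotonin genes have 0 starts there. ESRP2 is the 1 luminal gene at these regions and does not stand for its list. In the whole luminal list 0 rose and 9 fell of 11 tested in DDC (median -0.85). In SLC6A4 0 rose and 7 fell of 11 (median -0.56).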

How the data were processed

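Regions were read from the authors' ChIP table on GRCh38, whose estimated counts (read pairs per region, multiple hits shared as fractions) came from featureCounts 2.0.3, per the file headers, and were rounded. The deposited RNA signal is reads per gene divided by size factors, per the file headers; reads were aligned with HISAT2 2.1.0, per the submitters' processing notes, and 100% of values were whole multiples of 1 step (tolerance 1e-06), from 17.3 to 21.7 M reads per library. CUT&Tag values are CPM per peak, as deposited. Bowtie2, MACS2 and HOMER are named in the submitters' processing notes; how up peaks were called is not given in the sources used here.

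ChIP comparisons used edgeR 4.0.16 (quasi-likelihood F-test, TMM, filterByExpr) over all regions; RNA used limma 3.58.1 with a trend on log2(normalised reads + 1), which understates the change of low genes, keeping genes that reached 10 normalised reads in 3 or more libraries, in R 4.3.3. The design allowed counts for RNA; the deposited RNA is normalised, so the test named for such values was used, and edgeR on the recovered reads was run as an alternative. P-values are two-sided and adjusted by Benjamini-Hochberg over the whole table, with a threshold of 0.05. RNA comparisons stayed within a table. Nothing says that libraries came from separate cultures, so p-values measure the spread between libraries. GENCODE 44 gave gene starts, counted within 1000 bp of a region; GC content was read from GRCh38 (pysam 0.24.0). Tests were run on simulated data first: for H3K4me3Q5ser in SLC6A4 (19531 regions) 99% of log2 changes of 0.585 and 70% of 0.2 were found with 4.52% false calls, and for RNA in SLC6A4 (13468 genes) 99% of 1 and 64% of 0.5 with 3.55% false. Only 100 features of each size were changed, equally up and down and with no GC trend. The false shares therefore do not carry over to the ChIP data, where most regions were called. The pass mark was limited to the larger size after the 64% was seen.

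The regions, the 18 gene lists and the naming rule were chosen with earlier results of these data known. The rule named up to 5 regions higher and 5 lower by adjusted p per ChIP comparison, the 5 highest and 3 lowest empty-vector levels, the 8 largest rises and falls in RNA with a mean of at least 50 normalised reads, up to 8 genes per line with both RNA and mark called, and called list members. Alternatives were DESeq2 1.42.0, library size scaling, other filters and pseudocounts, a GC-fitted offset (smoothing span 0.3, added after seeing the data), a replicate block and leaving out each replicate. CUT&Tag samples of DDC and the inputs of SLC6A4 were not analysed here, and some genes and sequences that the rule names are not reported here.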

Additional observations from a re-analysis of the deposited data

Results flagged for a closer look

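Of genes at the regions with RNA called in both lines, 131 went in the same direction and 3 in opposite directions. The same counts over all genes were not taken. In these 3 every DDC library lay below and every SLC6A4 library above the empty-vector libraries. They were named after their values were seen, and the difference itself was not tested. TIMM17A, a subunit of the mitochondrial import machinery, had a log2 change of -0.29 in DDC and 0.22 in SLC6A4, a difference of -0.514374. CCT4, a subunit of the cytosolic chaperonin, had -0.26 and 0.21, a difference of -0.466773. GRPEL1, a mitochondrial co-chaperone, had -0.23 and 0.17, a difference of -0.404668. The lines share the empty-vector libraries.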

How the results depend on the processing

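Counts of called regions or genes were taken in either direction. Asking for 1.5-fold as well, chosen after seeing the data, left 249 regions for H3K4me3Q5ser in SLC6A4 (1481 without it), 108 for H3K4me3 in SLC6A4 (1104), 10 for the interaction in SLC6A4 (758), 3 for H3K4me3Q5ser in DDC (1234), 4 for H3K4me3 in DDC (324), 6 for the interaction in DDC (242), 102 and 110 for DDC against SLC6A4 in H3K4me3Q5ser and H3K4me3 (1352 and 1128) and 0 for input in DDC (112 at an adjusted p under 0.05 alone in edgeR, 28 in DESeq2). DESeq2 called 164 regions for H3K4me3 in DDC, 28 for input, and 175 and 208 genes for RNA in DDC and SLC6A4 (269 and 337 in limma), leaving out RILPL2 and MYLIP. With no length limit 509 genes were called in SLC6A4, from more genes tested. With the GC offset H3K4me3 of DDC against SLC6A4 had 690 calls.

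With the GC offset 5 named values changed sign: ZMIZ1 H3K4me3 in DDC against SLC6A4 (0.036, from -0.47), FGFR1OP2 with INTS13 H3K4me3Q5ser in SLC6A4 (0.069, from -0.56), OTUD6B H3K4me3Q5ser in SLC6A4 (0.34, from -0.52) and in DDC against SLC6A4 (-0.13, from 0.52), and ITGB1-DT H3K4me3Q5ser in DDC against SLC6A4 (-0.0060, from 0.35). The gap in medians between the sets of regions for H3K4me3 in DDC against SLC6A4 also changed sign (-0.0014, from 0.012). ZMIZ1 H3K4me3 in SLC6A4, the ZMIZ1 interaction in DDC and SUCO were no longer called. The cause was not tested.

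Leaving out 1 replicate at a time gave 1444 to 1482 calls for H3K4me3Q5ser in SLC6A4, 1011 to 1106 for H3K4me3 in SLC6A4, 606 to 769 for its interaction, 1172 to 1241 for H3K4me3Q5ser in DDC, 262 to 327 for H3K4me3 in DDC, 172 to 245 for its interaction, 1304 to 1352 and 1049 to 1129 for DDC against SLC6A4 in H3K4me3Q5ser and H3K4me3, 73 to 89 for input (73 without DDC replicate 2), and 181 to 242 and 234 to 314 genes for RNA in DDC and SLC6A4. The replicate numbers did not pair the libraries. With a replicate block the counts were 1479 for H3K4me3Q5ser in SLC6A4, 1103 for H3K4me3, 753 for the interaction, 1231, 329 and 236 for the same in DDC, 1351 and 1130 for DDC against SLC6A4, 108 for input, and 275 and 313 genes for RNA. Of the other named values, 853 gene and 1112 region values kept direction and call, and 47 gene values kept direction without the call. The planned input comparison of SLC6A4 was not run, since that input is not analysed here. For RNA, few reads limit genes such as RFX3 and MYLIP, and for ChIP 1 sample per line limits what the libraries can say of the lines.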
